A study of Mus musculus with 6 samples.

Results

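Control cultures of mouse cerebellar granule cells (GCs) were profiled by RNA-seq, and the levels of their transcripts are described here as a baseline for this cell type in vitro. The libraries are the 3 of the 6 in the series whose names begin with KDC, read here as the control hairpin (shCtrl). The cells came from cerebella of wildtype C57BL/6 pups, given as post natal day 8 in the labels and as days 6 to 8 in the study's methods. They were dissociated, grown in Neurobasal-A with B27, infected with lentivirus carrying shCtrl, a short hairpin RNA used as the control, and selected with puromycin. The other 3 libraries, with names that begin with KD2, were read as infected with shYthdf2, a hairpin against the transcript of the m6A reader YTHDF2. Each library is thus a transduced, selected, mixed dissociated culture, and no step that isolated GCs is stated.

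The libraries are numbered 1, 2 and 4 in their names, and the numbers are kept here as replicates. The names of the libraries disagree with the titles and genotype labels of the samples on which group is which. The names were followed. The titles and the genotype label give the KDC libraries as KDYthdf2 and the others as wildtype. Were they right, the 3 libraries described here would be knockdown libraries. By the names, Ythdf2 had 697, 868 and 572 counts in shCtrl replicates 1, 2 and 4, or 32.4, 42.8 and 33.2 counts per 1000000 counts of the library (CPM). It had 479, 415 and 472 counts in the shYthdf2 libraries with the same numbers, or 26.9, 21.3 and 26.8 CPM. Every shCtrl library was therefore above every shYthdf2 library for the targeted transcript.

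GCs are the small excitatory neurons of the cerebellar cortex and the most numerous neurons of the brain. Their progenitors divide in the external granule layer after birth under Sonic hedgehog, then leave the cell cycle, extend parallel fibers, migrate inward and become glutamatergic neurons. These neurons receive mossy fiber input and contact Purkinje cells. Transcription factors of the Zic, Neurod and Pax families mark the lineage, whereas the GABA-A receptor subunit encoded by Gabra6 and the synaptic organizer encoded by Cbln3 appear as the cells mature.

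The shCtrl libraries held 21546595, 20278961 and 17246821 counts in replicates 1, 2 and 4, so that 1 CPM corresponded to 21.5, 20.3 and 17.2 counts. A gene was called expressed when it had at least 1 CPM in every shCtrl library. Levels of different genes were compared as TPM, which are counts per kilobase of exon scaled to a total of 1000000 in each library. Of 53421 genes in the table, 13931 were expressed, 13601 of them with a symbol, and 23670 had no count in any of the 3 libraries. Protein-coding genes made up 12174 of those expressed, or 55.8% of the 21819 protein-coding genes listed. This share is the background for the counts of expressed genes given below for lists and families of protein-coding genes.

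Replicate 2 stood apart from the others. Among the 13931 expressed genes, 48 (0.345%) differed by more than 2-fold in CPM between replicates 1 and 4. Between replicate 2 and replicates 1 and 4, the numbers were 1179 (8.46%) and 1212 (8.70%). Pearson's r of log2 CPM across these genes, which are not independent replicates, was 0.996 between replicates 1 and 4 and 0.967 and 0.966 for the pairs with replicate 2. In replicate 2, 438 of the 13601 expressed genes with a symbol (3.22%) were more than 2-fold above both other libraries in CPM, and 435 (3.2%) were more than 2-fold below both. These shares are the background for the counts of genes past 2-fold, also in CPM, that are given with the gene lists. Each mean and SD is over 3 libraries, and values with and without replicate 2 are given where it moves them. The methods call the replicates biological, and what set replicate 2 apart was not tested.

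All 6 markers of the GC lineage were expressed, with levels that spanned 33.7 to 2374 TPM. Zic1, a zinc finger transcription factor of dorsal neural progenitors and GCs, had 2440, 2235 and 2447 TPM in replicates 1, 2 and 4. Neurod1, a basic helix-loop-helix (bHLH) factor needed for GC survival and differentiation, had 1577, 1369 and 1582 TPM. Cbln1, a secreted organizer of the synapse between parallel fibers and Purkinje cells, had 1170, 1686 and 1188 TPM. These ranked 19, 41 and 51 among all genes by mean TPM, and replicate 2 was the lowest library for Zic1 and Neurod1 and the highest for Cbln1. Pax6, a paired-box factor of GC progenitors and young GCs, had 225, 166 and 232 TPM. The late markers were lower and less even. Gabra6, the GABA-A receptor subunit alpha 6, had 38.8, 97.6 and 37.6 TPM, and Cbln3, a partner of Cbln1 made by mature GCs, had 13.3, 74.7 and 13.0 TPM. Replicates 1 and 4 were close to each other for both late markers, and replicate 2 was far above them. The label of the cells as GCs was thus met by its markers in every library. In bulk RNA, fewer cells of a type and less RNA per cell cannot be told apart, so no level here is a share of cells.

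The highest and the lowest of these markers lie on different chromosomes of GRCm38. Zic1 (ENSMUSG00000032368) lies on chromosome 9 from 91358058 to 91365810, on the minus strand, and its start site is 3397 bp from that of Zic4, which is read from the opposite strand. Gabra6 (ENSMUSG00000020428) lies on chromosome 11 from 42306437 to 42321072, also on the minus strand. Cbln3 (ENSMUSG00000040380) lies on chromosome 14 from 55878913 to 55884392, on the same strand. The promoters of Zic1 and Gabra6 are shown because they had the most and the fewest CG dinucleotides among the 5 markers in the RefSeq table, the latter together with Cbln3. Each sequence is the 250 bases before the start site in RefSeq (GRCm38.p6), 5′ to 3′ on the strand of the gene, with every CG dinucleotide in capitals.
Zic1 (chr9:91365769-91366018, minus strand): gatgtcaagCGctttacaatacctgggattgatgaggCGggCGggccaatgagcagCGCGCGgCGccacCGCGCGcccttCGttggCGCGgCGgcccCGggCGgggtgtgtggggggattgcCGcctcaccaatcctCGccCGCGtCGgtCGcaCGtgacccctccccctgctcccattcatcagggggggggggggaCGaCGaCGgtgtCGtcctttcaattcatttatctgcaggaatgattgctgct
Gabra6 (chr11:42321073-42321322, minus strand): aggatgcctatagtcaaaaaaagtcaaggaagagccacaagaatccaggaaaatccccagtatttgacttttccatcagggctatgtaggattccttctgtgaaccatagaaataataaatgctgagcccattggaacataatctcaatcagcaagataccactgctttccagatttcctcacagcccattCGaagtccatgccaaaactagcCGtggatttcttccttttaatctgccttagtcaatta
The Zic1 stretch holds 27 CG and the Gabra6 stretch holds 2. Over the window of 300 bases that runs 50 bases past the start, the median was 21 CG for the promoters of 9601 expressed protein-coding genes and 3 for 6879 protein-coding genes that were not expressed. Cbln3 had 2 CG in this window, as did Gabra6, against 26 for Neurod1 and 18 for Pax6. Late genes were not all poor in CG. The 9 genes of the mature list with a promoter in the RefSeq table had a median of 13, with 22 for Grin2c, 39 for Chn2 and 54 for Cadps2. CG content is a description of the sequence here, and no methylation was measured.

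By number of counts, mt-Co1, a mitochondrial gene for a subunit of cytochrome c oxidase, was first with 3690, 5605 and 3440 CPM in replicates 1, 2 and 4. The neuronal tubulin gene Tuba1a followed with 3714, 4637 and 3890 CPM, and Zic1 came next with 3254, 3224 and 3202 CPM. Counts were spread over many genes. The 10 genes with most counts held 2.55%, 2.95% and 2.55% of each library, the first 100 held 12.7%, 13.8% and 12.7%, and the 1000 with most counts held 46.0%, 47.0% and 45.8%. The 15 genes with the highest mean CPM included 5 that are well known in GCs or developing neurons. Reln, the secreted glycoprotein Reelin that guides neuronal migration, had 2368, 1985 and 2446 CPM. Zbtb18, a transcriptional repressor that acts in neuronal differentiation, had 2209, 2214 and 2289 CPM, and Fat2, a giant cadherin of GCs, had 2179, 1743 and 2206 CPM. Adcy1, a calcium-stimulated adenylyl cyclase, had 1752, 2137 and 1769 CPM, and Apc2, a neuronal relative of the tumor suppressor Apc, had 2010, 1724 and 1910 CPM. The other 7 of these genes, with the mean CPM of each, were Nrep (2116), the chaperone gene Hsp90ab1 (2063), the elongation factor genes Eef2 (1965) and Eef1a1 (1780), the spectrin gene Sptan1 (1919), the gene of the thymosin-related protein parathymosin, Ptms (1884), and the nuclear noncoding RNA Malat1 (1764). Malat1 and Nrep were uneven. Replicate 2 had the lowest of the 3 values for Malat1, with 2188, 897 and 2207 CPM, and the highest for Nrep, with 1725, 2866 and 1756 CPM.

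Per length, the order changed, because long transcripts gather more counts. Of the 15 genes with the highest mean TPM, 8 lie on the mitochondrial chromosome, led by mt-Co1 with 10194, 14317 and 9689 TPM. Tuba1a was the first nuclear gene, with 8793, 10150 and 9386 TPM. The other nuclear genes were Ptms with a mean of 4849 TPM, the ubiquitin gene Ubb with 3116 TPM, Eef1a1 with 2972 TPM, Hsp90ab1 with 2874 TPM and Basp1, a membrane protein of growth cones, with 2767 TPM. Gm23935, annotated as a miRNA gene of 57 bases, also stood in this list with a mean of 5125 TPM that came from 1298, 1803 and 1064 counts. A library of this kind does not measure mature miRNAs, and the TPM of so short a gene rests on its length. Of the genes with a symbol, 73 had a mean of at least 1000 TPM, 2291 at least 100 and 10252 at least 10.

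**Figure D1:**
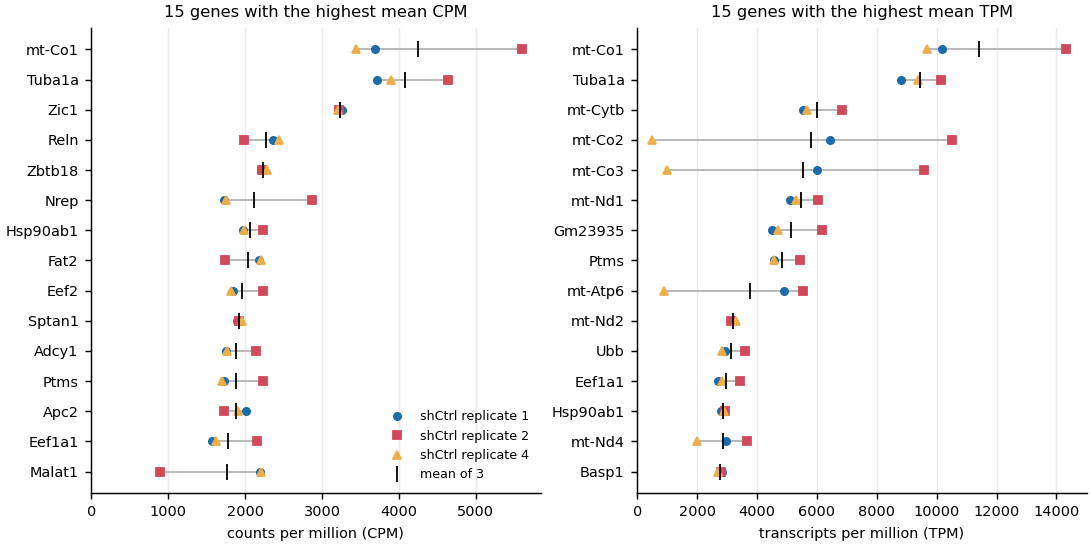
The 15 genes with the highest mean level over the 3 shCtrl libraries, by CPM (left) and by TPM (right). Points are the libraries, ticks the means of 3, and lines span the lowest and highest library, and the widest spans are those of mt-Co2, mt-Co3 and mt-Atp6, with 6439, 10528 and 476 TPM in replicates 1, 2 and 4 for mt-Co2.

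Part of the mitochondrial chromosome was low in replicate 4. For mt-Co2, mt-Co3, mt-Atp6, mt-Nd3 and mt-Nd4l, replicate 4 had 0.0725 to 0.180 of the CPM of replicate 1. Their CPM summed to 3142, 5088 and 431 in replicates 1, 2 and 4. Each of these 5 genes has a copy with 100% identical bases on nuclear chromosome 1, and the copies held at most 235 counts in any of the 3 libraries. For mt-Nd1, mt-Nd2, mt-Nd5, mt-Nd6 and mt-Cytb, which had no such copy, replicate 4 had 1.01 to 1.06 of the CPM of replicate 1. For mt-Atp8, which lies between mt-Co2 and mt-Atp6 and overlaps mt-Atp6, no annotated copy was found either, and its ratio was 0.280. The levels of the copied genes are uncertain, since reads shared by identical copies can be split or dropped in counting, and the part of this in the difference was not tested.

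**Figure D2:**
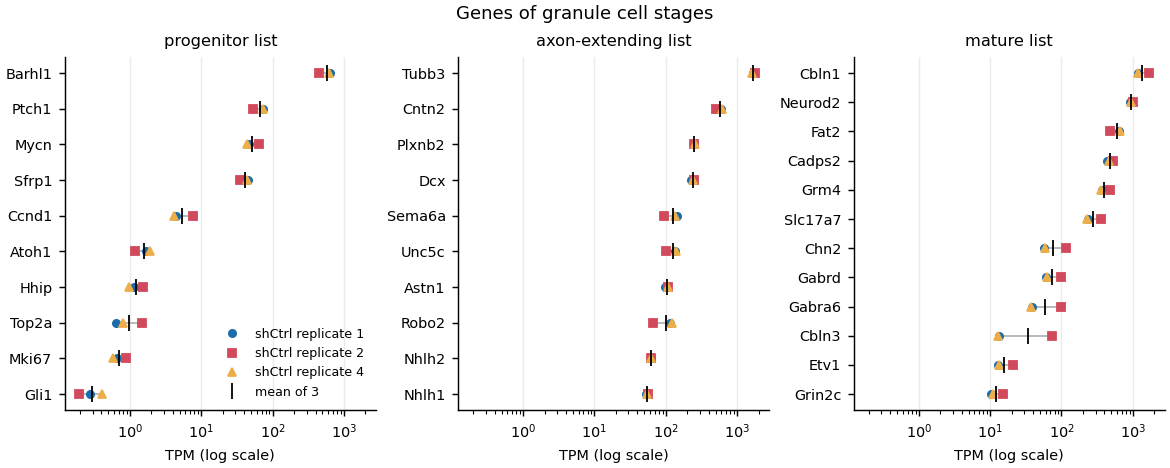
Levels of genes from 3 lists of GC stages in the 3 shCtrl libraries, as TPM on a log axis, with ticks at the means. Progenitor genes ran from 0.292 TPM for Gli1 to 572 TPM for Barhl1, the axon-extending genes lay within a narrower band, and replicate 2 was the highest library for 11 of 12 mature genes.

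The axon-extending and mature lists summed to higher levels than the progenitor list in every library. Of the progenitor list, 8 of 10 genes were expressed, and the sum of all 10 was 820, 610.3 and 796 TPM in replicates 1, 2 and 4, but 572 TPM of the mean came from the homeobox gene Barhl1 alone, which young postmitotic GCs also express. Atoh1, the bHLH factor that defines dividing GC progenitors, had 1.68, 1.19 and 1.90 TPM and was not called expressed. The effector of hedgehog signaling Gli1 had 0.278, 0.195 and 0.404 TPM. The proliferation genes Mki67 and Top2a, encoding the Ki-67 antigen and a topoisomerase of dividing cells, had 0.65, 0.87 and 0.577 TPM and 0.637, 1.47 and 0.812 TPM. Hhip, another gene of the hedgehog response, was also low, with 1.135, 1.54 and 0.973 TPM. Some other genes of the response were higher. Ptch1, the hedgehog receptor, had 74.6, 52.7 and 74.5 TPM, and Mycn, a growth-promoting target of the pathway, had 46.9, 65.3 and 43.3 TPM. Ccnd1, the cyclin D1 gene, had 4.38, 7.73 and 4.12 TPM, a value that is uncertain because its exons overlap those of a neighboring gene. Of a separate list of 20 genes of S phase and mitosis, 12 were expressed, and all 20 had a sum of 119.9, 138 and 126 TPM, of which Pcna, a polymerase clamp that also serves DNA repair, gave a mean of 61.2 TPM. The ratio of Neurod1 to Atoh1 in TPM was 938, 1148 and 831, which is imprecise because Atoh1 had only 18, 13 and 16 counts.

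All 10 genes of the axon-extending list were expressed, and their sum was even across the cultures at 3346, 3262 and 3357 TPM. Tubb3, the neuronal beta tubulin, had 1661, 1767 and 1637 TPM, and Cntn2, the adhesion molecule TAG-1 of growing parallel fibers, had 602, 509 and 608 TPM. Dcx, a microtubule-binding protein of migrating neurons, had 229, 250.1 and 239 TPM. The bHLH genes Nhlh1 and Nhlh2, which are brief markers of newly postmitotic neurons, had 53.0, 55.8 and 54.0 TPM and 62.7, 61.2 and 62.0 TPM, with the libraries close together. Some guidance genes varied more. Robo2, a Slit receptor, had 115, 67.2 and 120.5 TPM, and Sema6a, a transmembrane semaphorin of migrating GCs, had 144, 95.9 and 136 TPM, with replicate 2 the lowest library for both. The semaphorin receptor gene Plxnb2 of the same list was even, at 248, 247 and 253 TPM.

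All 12 genes of the mature list were expressed too, with a sum of 3964, 4947 and 4017 TPM, and replicate 2 was the highest library for 11 of them, against 33.3% of all expressed genes. Behind Cbln1, the highest were Neurod2, a bHLH factor of differentiated neurons, with 916, 1005 and 928 TPM, Fat2 with 640.1, 474 and 661 TPM and Cadps2, which primes dense-core vesicles, with 441, 528 and 460 TPM. Fat2 was the exception in which replicate 2 was lowest. Grm4, the metabotropic glutamate receptor of parallel fiber terminals, had 371, 475 and 354 TPM. The vesicular glutamate transporter Slc17a7 (VGLUT1) had 235, 356 and 229.7 TPM. Genes that GCs turn on late were lower in replicates 1 and 4. Gabrd, the delta subunit of extrasynaptic GABA-A receptors, had 60.1, 99.3 and 62.1 TPM, Chn2, a Rac-regulating protein, had 56.2, 115 and 59.0 TPM, and Grin2c, the NMDA receptor subunit of mature GCs, had 10.3, 15.3 and 11.0 TPM. In replicate 2, 3 of the 12 genes, Gabra6, Cbln3 and Chn2, were more than 2-fold above both other libraries in CPM, against the background of 3.22%. The ratio of Cbln1 to Cbln3 was 87.9 and 91.3 in TPM in replicates 1 and 4 and 22.6 in replicate 2.

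Transcripts of other cell types were present in every culture at lower sums. Of 14 genes for astrocytes and Bergmann glia, all were expressed, with a sum of 517, 1054 and 533 TPM in replicates 1, 2 and 4. Fabp7, a fatty acid binding protein of Bergmann glia and radial glia, had 175, 432 and 180 TPM, and Gfap, the glial intermediate filament, had 131, 269.7 and 130 TPM. The glutamate transporter Slc1a3 (GLAST) had 23.8, 45.1 and 26.2 TPM and the water channel Aqp4 30.3, 62.5 and 34.4 TPM. Replicate 2 was the highest library for 12 of the 14 and passed 2-fold above both others for 7, against 33.3% and 3.22% of all expressed genes. Slc1a2, the glutamate transporter GLT-1, went the other way with 51.6, 24.1 and 53.9 TPM.

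The oligodendrocyte list differed most in this direction. All 12 genes were expressed, replicate 2 was highest for all 12, and it passed 2-fold above both others for all 12, against 33.3% and 3.22% of all expressed genes. Their sum was 271, 892 and 271 TPM, or a mean of 478 TPM that became 271 TPM without replicate 2. The list covers the whole lineage. Pdgfra, the growth factor receptor of precursors, had 8.85, 25.9 and 10.2 TPM. The lineage factors Olig2 and Sox10 had 7.91, 35.1 and 8.18 TPM and 16.7, 65.5 and 16.8 TPM, Gpr17, a receptor of committed cells, had 7.78, 49.0 and 8.69 TPM, and the myelin gene Mbp had 68.8, 205 and 65.4 TPM.

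Inhibitory neurons were represented more evenly. All 10 genes of the GABAergic interneuron list were expressed with a sum of 463, 553 and 465 TPM. The vesicular transporter of GABA and glycine, Slc32a1, had 116, 135 and 116 TPM, Gad1, which makes GABA from glutamate, had 90.6, 95.6 and 95.1 TPM, and Pax2, the factor of immature interneurons, had 29.9, 27.1 and 28.8 TPM. The glycine transporter Slc6a5 was lower in replicate 2, with 24.7, 7.11 and 24.0 TPM. Purkinje cell genes summed to only 54.6, 58.1 and 56.5 TPM, with 7 of 10 expressed. Calb1, a calcium buffer of Purkinje cells and some other neurons, led with 19.2, 14.8 and 18.7 TPM, whereas Ppp1r17, Skor2 and Foxp2 were not called expressed, with means of 0.798, 0.767 and 0.0971 TPM. Pcp2, a protein found in Purkinje cells, had 5.42, 3.30 and 5.38 TPM but shares exon bases with Pet100 and is uncertain. For unipolar brush cells, a small excitatory type from the same rhombic lip, Eomes had 94.2, 56.8 and 94.0 TPM and Otx2 had 85.9, 56.1 and 85.5 TPM, and the list of 6 genes summed to 412, 329 and 427 TPM. The list also holds genes that other cerebellar neurons make.

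Of 10 microglial genes, 6 were expressed, and the 10 summed to 44.5, 131 and 44.0 TPM. The complement genes C1qa, C1qb and C1qc had 8.38, 31.8 and 9.22, 11.8, 43.8 and 9.51 and 5.54, 22.7 and 6.27 TPM, while P2ry12 and Trem2, receptors of microglia, had means of 0.102 and 0.158 TPM. Mural cells and fibroblasts gave 105, 255 and 110 TPM over 10 genes, of which 8 were expressed, led by the collagen gene Col1a1 with 37.6, 85.9 and 38.3 TPM. Endothelial genes were scarce at 7.89, 10.8 and 8.04 TPM, and the tight junction gene Cldn5 had 0, 0 and 1 counts. Of 5 erythroid genes none was expressed, and the hemoglobin genes Hba-a2 and Hbb-bt were at 0 counts, for which 3 counts, or 0.139 to 0.174 CPM, are the limit that a count of 0 allows. Of 9 ependymal and choroid plexus genes, 3 were expressed. The sum of the 9 moved opposite to the sums of the glial lists, at 197, 31.4 and 219 TPM. This was mostly Ttr, which encodes the thyroxine carrier transthyretin of the choroid plexus, with 149.8, 4.59 and 172 TPM. Foxj1, the master factor of motile cilia, had 33.8, 19.1 and 34.1 TPM. The remaining expressed gene, Dnah11, went the other way with 0.795, 1.76 and 0.628 TPM.

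**Figure D3:**
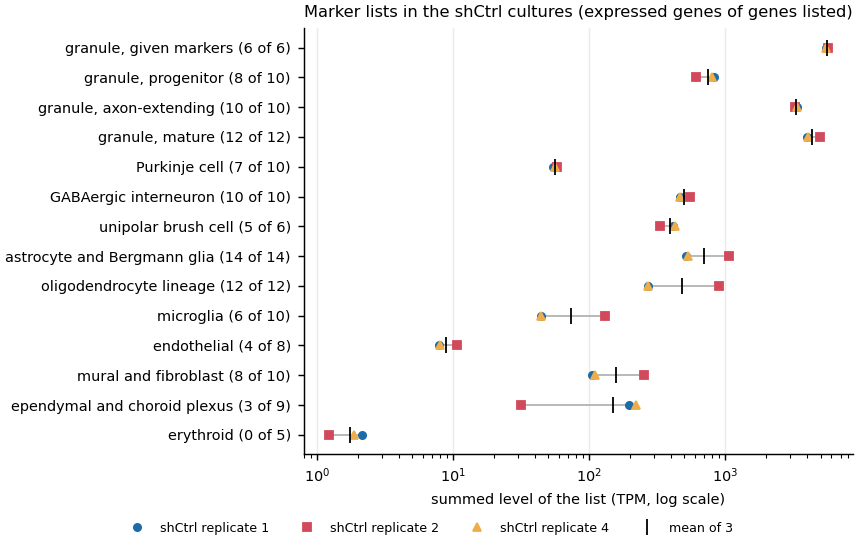
Summed TPM of the genes of each cell type list in the 3 shCtrl libraries on a log axis, with ticks at the means and, in brackets, the number of genes expressed among those listed. The mature GC list sums to 4309 TPM with replicate 2 highest at 4947 TPM, and replicate 2 also lies to the right for astrocyte, oligodendrocyte, microglial and fibroblast lists and to the left for the ependymal and choroid plexus list (197, 31.4 and 219 TPM).

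Ion channels were surveyed as 187 genes in 14 families. Of these, 114 (61.0%) were expressed, against 55.8% of all protein-coding genes, 72 had a mean of at least 10 TPM and 19 at least 100 TPM. No count was found in any of the 3 libraries for Trpc2, Ano9, Kcnj1, Kcna10, Kcnv2 and Kcnk16, 6 genes best known from vomeronasal neurons, kidney, retina, pancreas and other tissues outside the cerebellum. Kcnd2, the Kv4.2 subunit of A-type potassium current, led all channels with 454, 330.2 and 474 TPM. Kcnk1, the two-pore channel TWIK-1, followed with 341, 382 and 340.1 TPM, then the fast delayed rectifier Kcnc1 (Kv3.1) with 236, 223 and 229 TPM and the two-pore relative Kcnk12 with 219, 168 and 213 TPM.

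Voltage-gated sodium channels were carried by Scn8a (Nav1.6) with 131, 80.4 and 133 TPM and Scn2a (Nav1.2) with 33.5, 44.5 and 35.1 TPM. The ratio of Scn8a to Scn2a in TPM was 3.92 and 3.79 in replicates 1 and 4 and 1.80 in replicate 2. The leak channel Nalcn came next in this family with a mean of 7.45 TPM. Of the beta subunits, Scn3b led with 81.9, 90.7 and 88.0 TPM, ahead of Scn2b with 18.9, 33.4 and 16.9 TPM, and the ranges of these genes did not overlap. Among calcium channel alpha subunits, Cacna1b (N-type) with 221, 129 and 224 TPM and Cacna1a (P/Q-type) with 199.9, 162 and 198 TPM overlapped in range, as did Cacna1a and Cacna1e (R-type) with 171, 132 and 180.5 TPM. Which of these 3 led thus depended on the library and on the length used. Both N-type and P/Q-type channels serve transmitter release. The auxiliary subunits were led by Cacnb3, with 197, 165 and 196 TPM.

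Among the other voltage-gated potassium channels, Kcnq5, a subunit of the M-current, had 72.6, 69.3 and 77.7 TPM, and the erg channel Kcnh2 had 46.5, 33.1 and 48.2 TPM. The sodium-activated channel Kcnt1 had 72.3, 38.9 and 74.8 TPM and the large-conductance calcium-activated channel Kcnma1 had 31.5, 27.9 and 33.5 TPM. Kcnmb4, its beta 4 subunit, had 28.5, 8.02 and 28.5 TPM but overlaps an antisense gene and is uncertain. Inward rectifiers were led by Kcnj3 (GIRK1), a channel opened by G proteins, at 210.5, 97.1 and 233 TPM, with replicate 2 more than 2-fold below both other libraries. Its partner Kcnj6 (GIRK2) had 50.0, 39.5 and 54.3 TPM, and Kcnj11, the pore of the ATP-sensitive channel, had 63.6, 75.5 and 63.7 TPM. Another two-pore channel, Kcnk2 (TREK-1), had 82.7, 110.1 and 86.9 TPM.

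All 4 genes for hyperpolarization-activated (HCN) channels were expressed, with Hcn2 highest at 108, 97.0 and 101 TPM, then Hcn3 at 72.2, 37.5 and 77.7 TPM and Hcn4 at 33.1, 24.5 and 30.5 TPM. All 6 intracellular calcium release channels were expressed too, at low levels that began with the ryanodine receptor Ryr2 at 27.4, 34.5 and 29.3 TPM. TRP channels were led by the lysosomal channel Mcoln1 with 92.3, 53.6 and 96.3 TPM and the polycystin Pkd2 with 56.5, 31.0 and 55.5 TPM. Chloride channels and their relatives were led by Ano8 with 171, 107 and 165 TPM, Clcn6 with 139, 105 and 137 TPM and Clcn4 with 119.7, 117 and 125 TPM, of which the latter are exchangers of inner membranes. Acid-sensing Asic2 was higher in replicate 2, with 73.0, 168 and 71.5 TPM, while Asic1 was even at 49.7, 49.1 and 52.4 TPM. Replicate 2 was more than 2-fold above both other libraries for 7 of the 114 expressed channel genes and more than 2-fold below both for 10. These compare with 3.22% and 3.2% of all expressed genes. Replicate 2 was the lowest library for 78 of the 114 (68.4%, against 57.4% of all expressed genes).

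Receptors were surveyed as 372 genes in 16 families, of which 176 (47.3%) were expressed, against 55.8% of all protein-coding genes. Of the 372, 105 had a mean of at least 10 TPM and 29 at least 100 TPM. Ionotropic glutamate receptors were broadly expressed. All 4 AMPA receptor genes were expressed, with Gria2, the subunit that limits calcium entry, highest at 190.5, 116 and 202 TPM. Gria4 had 134, 122 and 144 TPM and Gria3 28.0, 28.7 and 30.9 TPM. Gria1, which was picked after its values were seen, had 2.65, 8.34 and 3.21 TPM, so that the ratio of Gria2 to Gria1 in TPM was 71.7 and 62.7 in replicates 1 and 4 and 13.9 in replicate 2. Gria1 is made by Bergmann glia as well as neurons. Kainate receptors were led by Grik5 with 218, 176 and 218 TPM and Grik2 with 120.1, 83.5 and 127 TPM. The obligatory NMDA receptor subunit Grin1 had 307, 175 and 297 TPM. Grin2b, the subunit of immature neurons, had 74.2, 74.0 and 78.2 TPM and Grin2a, which is prominent later, had 13.3, 13.8 and 14.7 TPM. Their ratio, 5.56, 5.38 and 5.34 in TPM, was close to constant in the 3 cultures even though Grin1 was lower in replicate 2. The delta receptor Grid1 was low, with a mean of 19.9 TPM.

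Of 19 GABA-A receptor genes, 11 were expressed. Among them, Gabrd and Gabra6, with the values given above, overlapped in range. Glycine receptors were represented by Glrb with 63.3, 65.4 and 68.7 TPM and Glra2 with 44.3, 64.8 and 42.9 TPM, the beta subunit and the alpha subunit of immature neurons. Of 18 nicotinic and serotonin-gated channels 5 were expressed and 5 had 0 counts, and the highest, Chrnb2, is uncertain because its exons overlap Adar.

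Metabotropic receptors for glutamate and GABA reached higher levels. Grm4 and Gabbr1, a subunit of the GABA-B receptor, overlapped with 371, 475 and 354 TPM and 403, 369.8 and 400.2 TPM. Without replicate 2, Gabbr1 was the higher of the pair. The highest receptor of all was Cnr1, the cannabinoid receptor of parallel fiber terminals, with 581, 568 and 592 TPM and a range that held no other receptor. Of 68 peptide receptors, 13 (19.1%) were expressed, against 55.8% of all protein-coding genes. Crhr1, the receptor of corticotropin-releasing hormone, had 258, 258 and 272 TPM, Adcyap1r1, the receptor PAC1 for PACAP, had 139.7, 235 and 148 TPM, and the somatostatin receptor Sstr2 had 166, 175 and 159.6 TPM. Amine receptors were also below that share, with 15 of 50 (30%) expressed, and the highest, the alpha-2C adrenergic receptor Adra2c, reached 30.9, 42.7 and 28.3 TPM. Of 21 chemokine receptors 3 were expressed and 8 had 0 counts. Ackr1 stood first among them at 349, 322 and 366 TPM, but 361 of its exon bases lie in exons of Cadm3 on the same strand. Its value is therefore uncertain.

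Adhesion receptors and guidance receptors formed a large share of the rest. Adgrl1 (latrophilin 1), a presynaptic adhesion receptor, had 419, 306 and 403 TPM, Adgrb2 (BAI2) had 244, 298 and 232 TPM and Celsr2, a planar polarity cadherin, had 242, 174 and 240.1 TPM. Of 23 axon guidance receptors 21 were expressed and 7 had a mean of at least 100 TPM. Unc5b, a netrin receptor, had 307, 284 and 303 TPM, Plxnb2, a semaphorin receptor of migrating GCs, had 248, 247 and 253 TPM, and Plxna1 had 142, 136 and 142 TPM. Replicates differed little for these 3. Wnt receptors of the Frizzled family were led by Fzd3, which acts in axon growth through planar polarity signaling, with 77.6, 61.7 and 81.4 TPM, Fzd7 with 57.4, 99.2 and 54.3 TPM and the R-spondin receptor Lgr4 with 64.9, 67.1 and 68.7 TPM. Their ranges overlapped, and the leading gene changed with the library left out. Of 54 receptor tyrosine kinases 39 were expressed. Tyro3, a receptor for Gas6 and protein S, was highest at 311, 134 and 307 TPM, with replicate 2 more than 2-fold below both others, followed by Ddr1, a collagen receptor, with 102, 120.2 and 98.6 TPM and the neuregulin receptor Erbb4 with 103, 78.9 and 112 TPM. Over all 176 expressed receptor genes, 11 were past 2-fold above both other libraries in replicate 2, and 7 were past 2-fold below. Among all expressed genes these shares were 3.22% and 3.2%.

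**Figure D4:**
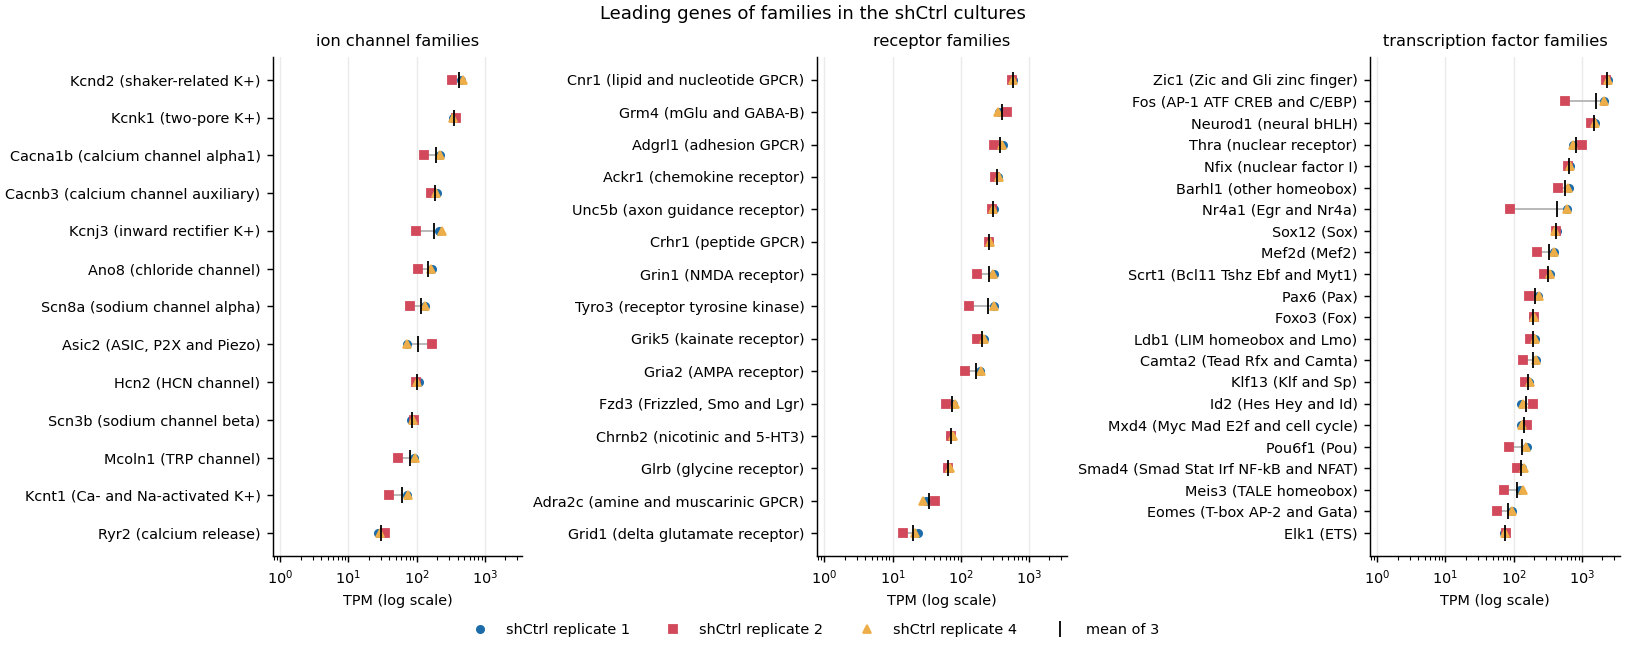
The expressed gene with the highest mean TPM in families of ion channels, receptors and transcription factors, with the 3 shCtrl libraries as points and the mean as a tick on a log axis. Leading channels and receptors lie between about 10 and 1000 TPM, and the transcription factors Zic1, Fos and Neurod1 exceed 1000 TPM, with Fos and Nr4a1 widest apart in replicate 2.

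Transcription factors were surveyed as 536 genes in 23 families, of which 299 (55.8%) were expressed, the same share as over all protein-coding genes (55.8%). Of the 536, 205 had a mean of at least 10 TPM and 47 at least 100 TPM. The Zic and Gli family summed to 4407, 3924 and 4439 TPM and was led by Zic1. Zic2 followed with 1481, 1288 and 1491 TPM, Zic5 with 230.2, 191 and 232 TPM and Zic4 with 208, 171 and 221 TPM. Zic2 and Zic5 are also neighbors on opposite strands, with start sites 9758 bp apart on chromosome 14, and Zic1 was above Zic4 and Zic2 above Zic5 in every library. Zic5 and Zic4 overlapped in range. The neural bHLH family summed to 3513, 3500 and 3527 TPM and was led by Neurod1, Neurod2 and Bhlhe22. Bhlhe22, a transcriptional repressor that acts in neuronal subtype identity, had 453, 585 and 446 TPM.

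Homeobox genes of the midbrain and cerebellum were expressed, and Hox genes were not called expressed. En2, the Engrailed factor that patterns the midbrain and cerebellum, had 372, 352 and 356 TPM, Barhl1 had 645, 444 and 625 TPM and its relative Barhl2 264, 175 and 254 TPM. Of 39 Hox genes none was expressed and 25 had 0 counts in every library, and the 39 together had 0.851, 0.245 and 0.837 TPM. Emx2, a cortical factor, and Nkx2-1, a factor of the ventral forebrain, were at 0 counts as well. Of the Pax family, Pax6, Pax2 and Pax3 were expressed, with Pax3 at 2.75, 2.45 and 3.30 TPM, and Pax4, Pax7 and Pax9 were at 0 counts. Among LIM factors Ldb1, a cofactor of the family, had 203, 174 and 204 TPM, Lhx1 had 84.3, 56.6 and 89.2 TPM and Lmo4 had 54.9, 51.2 and 57.0 TPM. Meis3, Meis1 and Pbx2 of the TALE family had means of 112, 49.5 and 45.7 TPM.

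Nfix, the nuclear factor I gene with the highest level, had 668, 622 and 664 TPM, and Nfib and Nfia, which drive late gene expression in GCs, had 139.5, 104 and 148 TPM and 66.8, 78.1 and 67.9 TPM. Thra, the thyroid hormone receptor alpha gene, had 753, 1007 and 735 TPM, with replicate 2 highest. Mef2d, an activity-regulated factor of GC survival, had 386, 223 and 395 TPM against 40.9, 35.7 and 42.2 TPM for Mef2a and 30.9, 14.8 and 33.2 TPM for Mef2c. Of the Sox family, Sox12, Sox4 and Sox11, which act in young postmitotic neurons, had 426, 414 and 408, 218, 219 and 214 and 111, 72.0 and 108 TPM, and the libraries were most alike for Sox12 and Sox4. Scrt1 and Scrt2, repressors of the Snail type in neurons, had 342, 275 and 342 TPM and 331, 242 and 304 TPM. Zinc finger factors of the Klf and Sp family were led by Klf13, with 171, 145 and 172 TPM. Foxo3, a factor of stress response and survival, led the Fox family with 190.4, 198 and 197 TPM, and the calmodulin-binding activator Camta2 had 214, 139 and 216 TPM. Atf4, the factor of the integrated stress response, was even at 433, 417 and 444 TPM. Replicate 2 was more than 2-fold above both others for 10 of the 299 factors and more than 2-fold below for 19, against 3.22% and 3.2% of all expressed genes. The 10 included the glial factors Olig1, Olig2, Sox10, Sox8 and Spi1, and the 19 included 9 genes of the immediate-early list and their relatives Jun, Maff and Atf3, all named here after their values were seen.

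Immediate-early genes, which neurons switch on within minutes of calcium entry or growth factor signaling, were low in replicate 2. Of 16 listed, 13 were expressed. Replicate 2 was the lowest library for all 13 and more than 2-fold below both others for 10, against 57.4% and 3.2% of all expressed genes. The sum of all 16 was 4725, 1284 and 4729 TPM in replicates 1, 2 and 4. Fos, a subunit of the AP-1 factor, had 2113, 559.7 and 2120 TPM, so that it was the second most abundant of the 536 transcription factors surveyed by its mean of 1598 TPM, which was 2117 TPM without replicate 2. The orphan nuclear receptor gene Nr4a1 had 604, 88.9 and 603 TPM, and Npas4, a bHLH factor induced by calcium in neurons, had 531, 93.5 and 542 TPM. Fosb had 50.4, 1.15 and 53.4 TPM from 1588, 37 and 1322 counts, the widest gap of the 13 expressed. Egr1, a zinc finger factor, had 128, 16.3 and 126 TPM, Nr4a2 had 381, 116 and 387 TPM and Dusp1, a phosphatase that shuts off MAP kinases, had 239.9, 116 and 232 TPM. Replicates 1 and 4 were close to each other for each of these genes, and replicate 2 was apart from both. Arc, a synaptic gene of the same class, was near absent from the table in all 3 libraries at 1.36, 2.87 and 1.40 TPM.

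Promoters of 12 immediate-early genes were in the RefSeq table, and they are shown for Fos, Nr4a1 and Npas4 because these 3 were the highest of the group. Each is the 250 bases before the start site in GRCm38.p6, 5′ to 3′ on the strand of the gene, with every TGACG or CGTCA in capitals. TGACG is the core of the site of CREB, a factor activated by calcium and cyclic AMP, and CGTCA is the same core on the other strand.
Fos (chr12:85473640-85473889, plus strand): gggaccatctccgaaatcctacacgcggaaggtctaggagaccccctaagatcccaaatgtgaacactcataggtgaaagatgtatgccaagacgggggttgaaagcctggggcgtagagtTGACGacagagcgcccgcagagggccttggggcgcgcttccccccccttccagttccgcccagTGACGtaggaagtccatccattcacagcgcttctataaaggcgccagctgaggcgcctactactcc
Nr4a1 (chr15:101266596-101266845, plus strand): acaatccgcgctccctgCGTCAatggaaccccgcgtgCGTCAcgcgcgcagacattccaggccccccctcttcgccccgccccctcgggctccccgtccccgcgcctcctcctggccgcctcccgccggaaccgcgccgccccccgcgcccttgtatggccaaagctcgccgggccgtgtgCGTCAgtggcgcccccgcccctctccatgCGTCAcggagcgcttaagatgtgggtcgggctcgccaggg
Npas4 (chr19:4989972-4990221, minus strand): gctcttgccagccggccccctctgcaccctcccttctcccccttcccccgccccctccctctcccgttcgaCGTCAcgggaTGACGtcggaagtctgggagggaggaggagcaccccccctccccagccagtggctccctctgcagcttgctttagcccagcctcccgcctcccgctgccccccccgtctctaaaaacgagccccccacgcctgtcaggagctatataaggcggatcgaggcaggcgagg
Fos and Npas4 each hold 2 of these cores and Nr4a1 holds 4. In the window of 300 bases, 10 of the 12 promoters (83.3%) held at least 1 core, against 21.0% of all 27025 promoters, 32.7% of 9601 expressed protein-coding genes and 13.0% of 6879 genes that were not expressed. At least 3 cores were found in 33.3% of the 12, in 1.07% of all promoters and in 2.31% of those of expressed protein-coding genes. The core itself holds a CG. The 12 had a median of 30.5 CG in this window, against 7 for all promoters and 21 for the expressed protein-coding genes. The part of CG content in these shares was not tested. Nr4a2 and Nr4a3 also held 4, Dusp1 held 3, and Egr2 and Fosl2 held none. A match of these letters is a description of the sequence, and the binding of a factor was not measured.

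**Figure D5:**
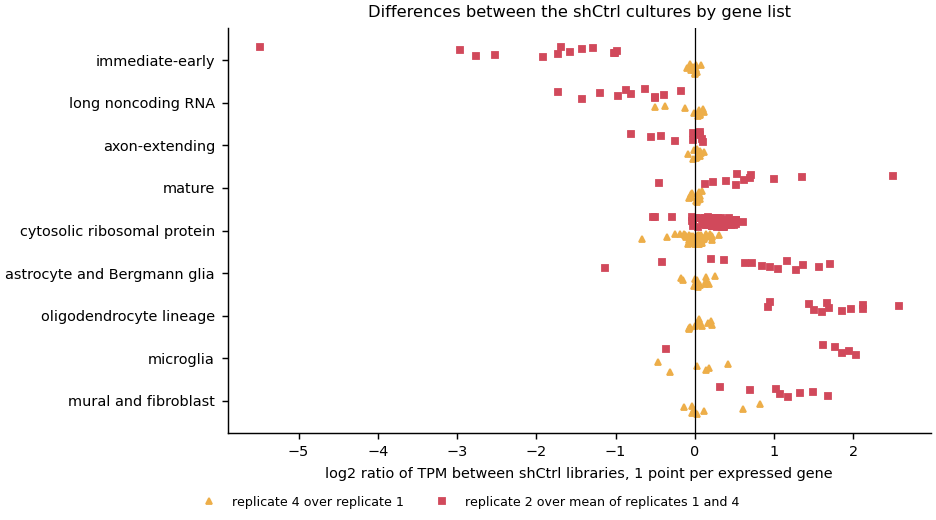
Log2 ratio of TPM for each expressed gene of 9 lists, for replicate 4 over replicate 1 (triangles) and for replicate 2 over the mean of replicates 1 and 4 (squares). Most triangles sit near 0, with exceptions such as Rgs5 of the mural and fibroblast list, at 3.01 and 5.33 TPM in replicates 1 and 4. Squares lie to the left for immediate-early genes and long noncoding RNAs and mostly to the right for the glial, microglial and fibroblast lists.

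The lists that set replicate 2 apart fell in both directions. They are named here because they differed in that library, and with 1 library apart, whether they vary together could not be tested. Beside the low immediate-early sum stood a low sum for the ependymal and choroid plexus list, mostly through Ttr. Sums were high for oligodendrocyte, astrocyte, microglial and fibroblast genes and for the mature GC list. Ribosomal protein genes were also higher there. Of 86 listed, 81 were expressed, replicate 2 was highest for 72 of them, against 33.3% of all expressed genes, and the sum of the 86 was 25007, 30560 and 25222 TPM, although none passed 2-fold over both others. Of the genes past 2-fold below, 297 of 435 (68.3%) were protein-coding, against 428 of 438 (97.7%) of those above and 89.5% of all expressed genes. Genes annotated as lincRNA, antisense or TEC made up 101 of the genes below, which was 15.4% of the 657 such genes expressed, and 5 of those above (0.761%). What these differences came from was not tested.

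Genes of the axonal cytoskeleton and of transmitter release were among the most abundant groups. All 23 genes of the tubulin and cytoskeleton list were expressed, 21 with a mean of at least 100 TPM, and their sum was 29806, 34581 and 30791 TPM. Tubb2b, an embryonic beta tubulin, had 2446, 2991 and 2468 TPM, Stmn1, a tubulin-binding phosphoprotein, had 1323, 1695 and 1448 TPM and Gap43, a growth cone protein, had 1235, 1568 and 1259 TPM. The neurofilament gene Nefh was the lowest of the list, at 3.82, 1.95 and 4.36 TPM, while Nefl had 116, 113 and 119 TPM and Nefm had 64.1, 37.5 and 64.8 TPM. Of 24 presynaptic genes, 21 were expressed, and all 24 had a sum of 6328, 7029 and 6461 TPM. Vamp2, the vesicle SNARE, had 685, 688 and 725 TPM and Snap25 had 279, 203 and 290 TPM. Both vesicular glutamate transporters of cerebellar neurons were expressed together, with a ratio of Slc17a7 to Slc17a6 in TPM of 1.52, 1.88 and 1.43. Unc13c (Munc13-3), a priming factor of mature parallel fiber terminals, was low in replicates 1 and 4 and higher in replicate 2, at 3.38, 13.2 and 3.76 TPM.

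Some genes that neurons are known to use were low or nearly absent in the table, so that a low level there does not show a lack of expression. Gapdh, the glycolytic enzyme gene, had 531, 249 and 396 counts and a mean of 20.4 TPM, and the ribosomal protein gene Rpl24 had 12, 11 and 10 counts. Nrxn2 and Rims1, presynaptic genes, had 5, 7 and 4 and 1, 1 and 1 counts. These genes were picked after their values were seen, and why they had few counts was not tested. Among the expressed genes with a symbol, 781 (5.74%) shared at least 10% of their exon bases with another gene that had at least 30% of their CPM. The strand setting of the counting is not given in the sources used here, so reads of overlapping genes cannot be told apart.

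The genes with the widest spread over the 3 libraries were not all of one kind. Among genes with a symbol and a mean of at least 10 CPM, the pseudogene Gm21596 had 0.279, 41.4 and 0.116 CPM, Ctrb1, which encodes the pancreatic protease chymotrypsinogen, had 15.6, 15.9 and 0.116 CPM and the pseudogene Pabpc1l2b-ps had 0.603, 0.74 and 34.9 CPM. Fosb and Ttr followed with 73.7, 1.82 and 76.7 and 41.6, 1.38 and 47.0 CPM, and Usp39, a splicing factor, had 11.4, 19.4 and 1.85 CPM. The other 4 of the first 10 were mt-Co2, mt-Co3, mt-Nd3 and mt-Nd4l, whose low library was replicate 4. Replicate 2 was thus the outlying library for Gm21596, Fosb and Ttr, and replicate 4 for the other 7.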

How the data were processed

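RNA was measured in 6 libraries of cultured GCs, of which the 3 shCtrl libraries are described. Per the labels, a TruSeq kit was used, and the methods name NEBNext Ultra. By the methods, the authors removed low-quality reads, mapped the rest to GRCm38 with HISAT 2.0.4 and TopHat2 2.1.1 and counted reads per gene with HTSeq 0.9.1. The submitters' processing notes list mm9 and Bowtie 0.12.2. The authors deposited the counts as whole numbers and did not normalize them. Of 53421 genes, 52403 were matched to a symbol in GENCODE vM21 and 785 were outside the annotation.

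Counts were divided by the library total to give CPM, and by the union of exons of each gene in that annotation to give TPM. No test was made, since 1 group was described. Each value is given per library or as mean ± SD over 3 libraries, which held 17246821 to 21546595 counts. The limit for a count of 0 was 3 counts. This limit covers counting error only, and reads carried no molecular identifiers. All columns of samples were mapped, by library name.

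The genes named were the 15 with the highest mean CPM and TPM, the genes of the stage, cell type, system and study lists, the 3 highest expressed members and members at 0 counts of each channel, receptor and transcription factor family, and the 10 of at least 10 CPM with the widest spread. Some genes under this rule are not reported here. Genes picked later, with their values in view, are marked where they appear. The libraries, members and lists were chosen with earlier results of these data known. Alternatives were other minimum levels (0.5 and 2 CPM, 1 TPM, 10 CPM), TMM factors from edgeR 4.0.16, the length of the longest transcript, CPM without length, the median of a list and each library left out. TPM without the genes of the mitochondrial chromosome in the total was added after the data were seen. Calculations used R 4.3.3 and Python 3.11.15 with numpy 2.4.6, pandas 2.3.3, Biopython 1.88 and matplotlib 3.10.9, and the code was tested on simulated data. Promoter sequences are from RefSeq, as 250 bases before to 50 after each start.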

Additional observations from a re-analysis of the deposited data

Results flagged for a closer look

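Genes outside the annotation entered no comparison, yet 311 of the 785 in the table had at least 1 CPM in every shCtrl library. All genes of this kind together held 0.285%, 0.223% and 0.294% of the counts in replicates 1, 2 and 4. What they are was not tested.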

How the results depend on the processing

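Of 141 values recomputed under an alternative, 122 were labeled the same and 19 moved. Summed levels and the share of the top 10 genes moved if the change reached the SD between the libraries. Counts of genes, or of families with an unchanged leading gene, moved past 1.5 times, and ranks at any change. All 60 values with a library left out were the same. For the sums and the share this was fixed in advance, since leaving out 1 of 3 libraries cannot shift a mean by its SD. By CPM without length, 36 of 52 families kept their leading gene, which was also labeled the same. With the length of the longest transcript, the summed levels became 4667 TPM for the 6 markers of the GC lineage, 3048 TPM for the axon-extending list, 68.0 TPM for Purkinje cells and 567 TPM for GABAergic interneurons. Without genes of the mitochondrial chromosome in the total, which was tried after the data were seen, they were 5844, 3509 and 59.6 TPM for the markers, the axon-extending list and Purkinje cells. With at least 10 CPM in every shCtrl library, 9126 genes remained and fewer differed by more than 2-fold, with 288 between replicates 1 and 2, 16 between replicates 1 and 4 and 292 between replicates 2 and 4. By the median of a list in place of its sum, the rank changed for 9 of 14 lists, and the progenitor list went from 4 to 11.

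The number of expressed genes was 15514 at 0.5 CPM, 12442 at 2 CPM and 15506 at 1 TPM, and 14077 to 14666 with a library left out. The oligodendrocyte sum ranged from 271 to 582 TPM and the microglial sum from 44.2 to 87.6 TPM with a library left out. Of the 52 families with an expressed member, 33 kept their leading gene under every alternative tried. No paired analysis was possible because the values come from no test between groups. Means of genes with few counts are limited by depth, and 3 libraries of which 1 stands apart give SDs that mostly describe that library.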

Other observations

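Long noncoding RNAs were lower in replicate 2. Of 14 listed, 11 were expressed, replicate 2 was the lowest library for all 11, against 57.4% of all expressed genes, and the 14 had a sum of 2520, 1319 and 2602 TPM in replicates 1, 2 and 4. Malat1, a nuclear RNA of speckles, had 1337, 507 and 1375 TPM and Miat, another nuclear RNA, had 202, 103 and 201 TPM. Peg13, an imprinted transcript made in brain, had 723, 523 and 755 TPM, and Meg3, an imprinted RNA of neurons, was at 0.449, 0.151 and 0.349 TPM. In replicate 2, 3 of the 11 passed 2-fold below both other libraries, against 3.2% of all expressed genes.

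Each culture held transcripts of both sexes. Xist, the RNA of the inactive X chromosome, had 190.2, 138 and 199 TPM, and the Y-linked genes Eif2s3y and Ddx3y had 55.9, 38.4 and 58.3 TPM and 29.4, 19.0 and 32.4 TPM in replicates 1, 2 and 4. All 5 genes of this list were lowest in replicate 2, as were 57.4% of all expressed genes. The labels do not give the sex of the pups or say whether litters were pooled.

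The readers of m6A that the study concerns were expressed at moderate levels. Ythdf1 had 85.4, 94.5 and 94.0 TPM, Ythdf3 had 58.9, 53.3 and 67.6 TPM and Ythdf2 had 30.2, 36.9 and 31.6 TPM, and the ranges of the 3 genes did not overlap. The genes of the Wnt pathway and planar polarity among the study's genes spanned a wider range. Dvl1, a cytoplasmic effector of Wnt receptors, had 398, 227 and 394 TPM, Vangl2, a planar polarity protein, had 58.4, 42.8 and 53.3 TPM, and Wnt5a, a secreted ligand, had 4.25, 4.92 and 3.13 TPM.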
